A study of Mus musculus with 48 samples.

Results

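The 13 protein-coding genes of the mouse mitochondrial genome were analysed across 48 RNA-Seq samples of striatal progenitor cells. They were taken by their 13 Ensembl identifiers and not by any measured value, and all 13 were among the 27281 genes of the deposited table. All passed the minimum mean of 1 on the deposited log2 scale, which left 13409 genes with a symbol for testing. They are the complex I subunits ND1 (ENSMUSG00000064341), ND2 (ENSMUSG00000064345), ND3 (ENSMUSG00000064360), ND4L (ENSMUSG00000065947), ND4 (ENSMUSG00000064363), ND5 (ENSMUSG00000064367) and ND6 (ENSMUSG00000064368), the complex III subunit CYTB (ENSMUSG00000064370), the complex IV subunits COX1 (ENSMUSG00000064351), COX2 (ENSMUSG00000064354) and COX3 (ENSMUSG00000064358), and the ATP synthase subunits ATP8 (ENSMUSG00000064356) and ATP6 (ENSMUSG00000064357).

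Complex I passes electrons from NADH into the respiratory chain, complex III passes them on to cytochrome c, complex IV hands them to oxygen, and ATP synthase uses the proton gradient that results. Mitochondrial DNA carries only a few core subunits of these machines, and the nucleus encodes the rest. The circular genome is read from both strands as long transcripts that are cut at the tRNAs lying between most genes, and most of the mature mRNAs carry a short poly(A) tail, while ND6, the only protein gene on its strand, is known in human cells to lack a stable one.

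The study compared immortalized striatal progenitor lines of C57BL/6 background that carry wild-type (STHdhQ7) or mutant, polyglutamine-expanded (STHdhQ111) huntingtin, called Q7 and Q111 cells here. Each genotype was represented by 1 line. After growth in serum, cells were kept for 24 hours without serum, which was common to all conditions, with vehicle (DMSO) or with a compound that the study had classed as protective of Q111 cells. Vehicle was given to Q7 and to Q111 cells, and 14 compounds were given to Q111 cells only, so that 16 conditions had 3 samples each. A dose of 10 µM was used for selisistat, for diacylglycerol kinase inhibitor II (called DKI here), and for loxapine, cyproheptadine and meclizine. Pizotifen was given at 5 µM, cysteamine at 250 µM, sodium butyrate at 1 mM and 4-deoxypyridoxine at 4 mM. The lowest doses were those of fingolimod phosphate (250 nM), trichostatin A (10 nM), nortriptyline (1 nM), haloperidol (0.5 nM) and nicotinamide (0.5 nM). Cyproheptadine, loxapine and pizotifen formed the study's Group A, and DKI and meclizine its Group B.

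The mitochondrial protein genes lie close together, and some share bases. On the mouse mitochondrial chromosome (GRCm38, chromosome M), ATP8 at 7766 to 7969 and ATP6 at 7927 to 8607 overlap by 43 bases on the same strand, and ND4L at 9877 to 10173 and ND4 at 10167 to 11544 overlap by 7 bases. ND5 and ND6 overlap by 14 bases on opposite strands, and ND6 was the only one of the 13 genes on the minus strand. The overlaps, printed in capitals from the GENCODE M21 transcripts, show which bases belong to both genes of a pair:
ATP8 end (chrM:7897-7969, plus strand): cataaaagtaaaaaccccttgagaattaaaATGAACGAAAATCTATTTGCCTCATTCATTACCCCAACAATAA
ATP6 start (chrM:7927-7999, plus strand): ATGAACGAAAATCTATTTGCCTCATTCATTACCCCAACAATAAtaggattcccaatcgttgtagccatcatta
ND4L end (chrM:10137-10173, plus strand): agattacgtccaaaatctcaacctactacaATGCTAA
ND4 start (chrM:10167-10203, plus strand): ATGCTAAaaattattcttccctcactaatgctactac

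Reads of the study were 50 bases long, and the nuclear genome holds a block of mitochondrial DNA on chromosome 1 (24611535 to 24616197, minus strand) that repeats much of this region. Of all 50-base windows in a gene, the share that occurred unchanged in another annotated transcript was 100% for COX2, 99.9% for COX3, 99.5% for ATP6, 98.8% for ND4L, 98% for ND3, 62.2% for ND4 and 51.1% for COX1. It was 8.19% for ND2, 7.61% for ND5 and 0% for ND1, ATP8, ND6 and CYTB. The 7 former genes each had an unprocessed pseudogene in the chromosome 1 block with at least 99% identity over the aligned bases, namely Gm28661 for COX2, Gm28437 for COX3, Gm10925 for ATP6, Gm10222 for ND4L, Gm28438 for ND3, Gm28439 for ND4 and Gm29216 for COX1. The annotated copy of COX2 lacked only its last 3 bases, shown in capitals, and ND3 differed within the aligned part by a single substitution, T3C, counted from 1 at the first base of ND3 and shown in capitals:
COX2 end (chrM:7657-7696, plus strand): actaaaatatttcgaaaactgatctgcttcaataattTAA
ND3 start (chrM:9459-9485, plus strand): atTaacctgtacactgttatcttcatt
Gm28438 start (chr1:24613093-24613119, minus strand): atCaacctgtacactgttatcttcatt
The stretches printed here are shorter than a read. A read that lies wholly within bases identical at both loci could be placed on either locus, and the deposited values are estimates of how such reads divide.

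Sequencing depth per sample is not known, because the values are normalised abundances without counts, and 2 to the power of the values summed to between 8979535 and 10006091 per sample. Huntingtin itself (Htt) had log2 values of 9.29, 9.01 and 9.03 in Q7 and 8.10, 8.10 and 7.92 in Q111 cells. Of the progenitor markers, Vim was at 15.60 in Q7 and 15.42 in Q111 cells, whereas Nes was at 10.95 and 4.96 and Sox2 at 8.91 and 4.81, so the lines did not carry the progenitor markers at like levels. Of the 4 fibroblast markers, Col1a1 was at 14.65 in Q7 and 14.63 in Q111 cells, Col1a2 at 10.33 and 13.03, Dcn at 7.25 and 7.32, and Lum at -0.39 in both. The neuronal genes Map2 (8.61 and 8.40) and Tubb3 (5.72 and 4.52) and the endothelial gene Pecam1 (8.08 and 8.23) were also present, whereas Rbfox3 and Syt1 stayed below 0 in all samples, as did 3 of 4 microglial genes (Aif1, Cx3cr1 and P2ry12) while Csf1r was at 1.96 and 1.93. The part of these differences in the results was not tested. 1 library, Selisistat replicate 2, stood apart in the 13 genes: their mean lay 0.74 below the mean of its condition on the log2 scale. It also deviated most over all genes tested (root mean square 0.145), but Q7 vehicle replicate 1 was close to it there (0.138). In that Q7 library the mean of the 13 genes deviated by -0.08. The F test of collection day called 0 genes (0% of those tested) and that of collection time 0 genes (0%), and 0 genes had even an unadjusted p under 0.05, where 670 would be 5% of the genes tested.

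The 13 genes made up a few percent of the summed linear values. In Q111 cells with vehicle the share was 3.51% ± 0.061 (SD, n = 3), and in Q7 cells it was 6.69% ± 0.093 (SD, n = 3). With the 7 chromosome 1 copies added, the shares were 4.89% ± 0.14 in Q111 and 9.46% ± 0.23 in Q7 cells. Among the compounds, the share with copies was lowest for selisistat at 3.83% ± 1.5, DKI at 3.91% ± 0.6 and meclizine at 4.41% ± 0.57, and highest for sodium butyrate at 5.77% ± 0.22. Selisistat replicate 2 alone was at 2.15%, against 4.74% and 4.61% in the other selisistat samples.

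**Figure D1:**
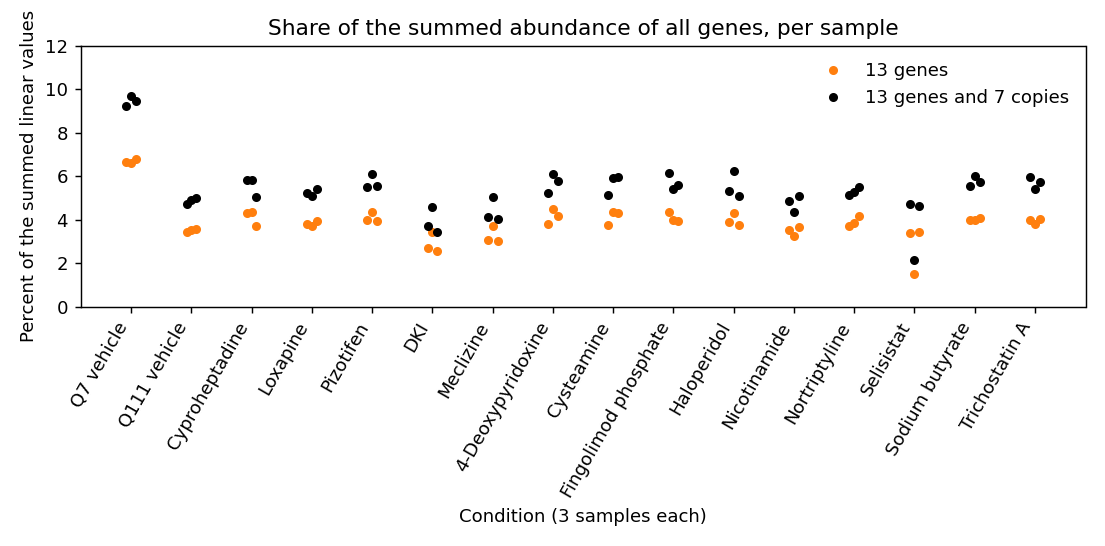
Share of the 13 genes (orange) and of the 13 genes with 7 chromosome 1 copies (black) in the summed linear values of all genes, in percent, for each of 48 samples by condition. The 3 Q7 samples lie between 6.63% and 6.80% for the 13 genes, above every Q111 sample, and Selisistat replicate 2 is lowest at 1.51%.

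Compared per kilobase of gene length and with the copies added, levels in Q111 cells spanned a wide range, on the log2 scale. ATP6 stood at 16.68 ± 0.08 (SD, n = 3), COX1 at 16.58 ± 0.02 and COX2 at 16.40 ± 0.05, followed by COX3 at 15.94 ± 0.09. CYTB was at 14.93 ± 0.05, ATP8 at 14.73 ± 0.13, ND1 at 14.65 ± 0.04 and ND4 at 14.20 ± 0.01. The other complex I genes were lower, with ND2 at 13.47 ± 0.01, ND4L at 13.08 ± 0.12, ND5 at 12.91 ± 0.01 and ND3 at 12.81 ± 0.08, and ND6 was last at 8.61 ± 0.15. The neighbours ATP8 and ND1 differed by less than the larger of their SDs, and ATP6 and COX1, and ND5 and ND3, by little more than it. Without the copies ATP6 would stand at 13.24 ± 0.06 and COX3 at 13.85 ± 0.17, since the copies held most of those values.

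The first comparison asked how the lines with wild-type and mutant huntingtin differ. All 13 genes were higher in Q7 than in Q111 cells (limma adjusted p under 0.05), where 29.2% of all genes tested were higher and 55.8% were called in either direction. The median log2 difference of the 13 genes was 1.18, against 0.004 over all genes tested, and it ranged from 0.63 for ND5 to 2.04 for ND3. For each of the 13 genes the lowest Q7 sample was above the highest Q111 sample, which was so for 29.9% of all genes tested. Genes without a chromosome 1 copy, ND6 apart, varied together between samples (median residual correlation 0.85, described below). A count over the 13 genes is therefore not a count of independent results, here or in later comparisons. In these whole-culture samples, fewer cells of a type and less RNA per cell cannot be told apart, and with 1 line per genotype the genotype and the line cannot be told apart either.

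Among the complex I genes, ND3 had values of 11.73, 12.24 and 12.08 in Q7 and 10.10, 9.88 and 9.93 in Q111 cells. Its fold change was 4.13 (log2 2.04, SE 0.249, limma adjusted p = 5.43e-09). ND2, at 15.08, 15.20 and 15.24 in Q7 against 13.52, 13.53 and 13.54 in Q111 cells, was 3.13-fold higher. The Q7 samples sat far above a tight Q111 group for both genes. ND1 was at 16.17, 16.11 and 16.18 in Q7 and at 14.57, 14.57 and 14.63 in Q111 cells, a 2.96-fold difference (log2 1.56, SE 0.157, limma adjusted p = 5.27e-11). ND4L, at 10.92, 11.11 and 10.83 against 9.29, 9.51 and 9.69, was 2.75-fold higher, and ND4, at 15.68, 15.89 and 15.87 against 14.61, 14.65 and 14.66, was 2.26-fold higher. ND6, on the other strand, was at 8.68, 8.53 and 8.56 against 7.55, 7.83 and 7.61, a 1.90-fold difference (log2 0.93, SE 0.148, limma adjusted p = 1.35e-06). The complex I genes thus did not share 1 size of difference. ND5, the longest of them, differed least, at 14.28, 14.45 and 14.51 against 13.79, 13.79 and 13.77, which is 1.55-fold (log2 0.63, SE 0.165, limma adjusted p = 0.0012), and its 95% interval of 0.30 to 0.97 did not meet that of ND3, 1.54 to 2.55.

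CYTB, the subunit of complex III that holds its b hemes, was at 16.37, 16.36 and 16.46 in Q7 and at 15.08, 15.11 and 15.18 in Q111 cells, 2.43-fold higher (log2 1.28, SE 0.189, limma adjusted p = 3.2e-07). COX1, the catalytic subunit of complex IV, had the highest deposited values of the 13 genes. It was at 17.87, 17.83 and 17.92 against 17.17, 17.18 and 17.21, a 1.61-fold difference (log2 0.69, SE 0.16, limma adjusted p = 0.000381). The complex IV subunits differed among themselves. COX2, which receives electrons from cytochrome c, was at 16.41, 16.17 and 16.53 against 15.39, 15.11 and 15.22, and was 2.18-fold higher. COX3 was at 14.39, 14.97 and 14.36 against 13.33, 13.50 and 13.68, and was 2.10-fold higher. Of the ATP synthase subunits, both of which belong to its membrane part, ATP8 was 2.37-fold higher at 13.44, 13.86 and 13.74 against 12.30, 12.44 and 12.56, and ATP6 was 1.83-fold higher at 13.52, 13.66 and 13.49 against 12.62, 12.72 and 12.72 (log2 0.87, SE 0.258, limma adjusted p = 0.00403). The Q7 and Q111 samples did not overlap for any of these genes. Within each collection day, where 1 Q7 sample met 1 Q111 sample, all 13 differences were positive, from 0.50 to 1.63 on day 1, from 0.65 to 2.35 on day 2 and from 0.68 to 2.15 on day 3 (log2). With the copies added the difference of ATP6 was 1.14 (SE 0.197), that of COX3 0.92 (SE 0.163) and that of COX2 1.12 (SE 0.133), and all 13 genes were again called.

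**Figure D2:**
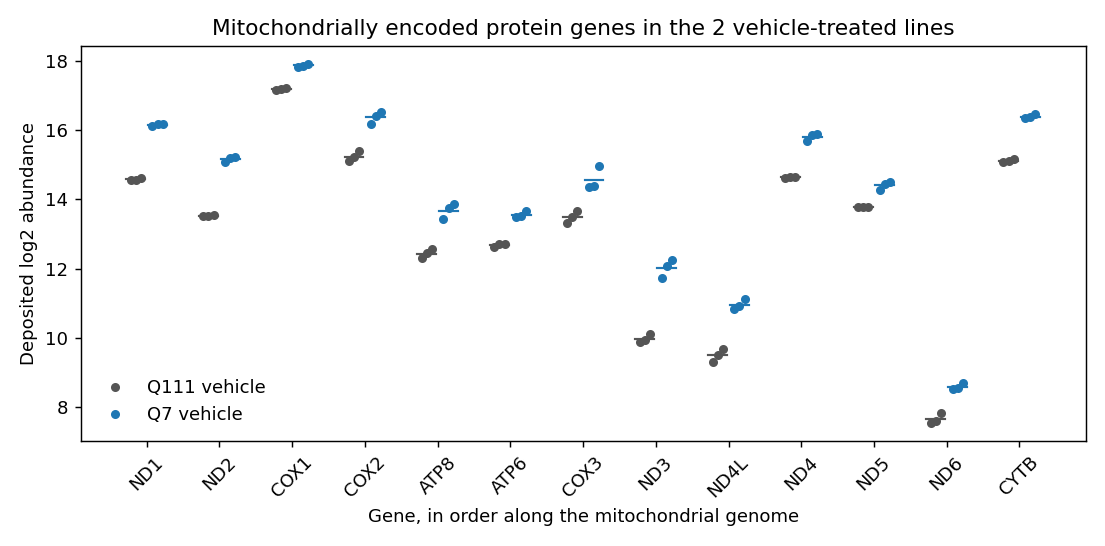
Deposited log2 abundance of each of the 13 genes in 3 Q111 and 3 Q7 samples with vehicle, in order along the mitochondrial genome; each point is a sample (ordered by value) and each bar the mean. The Q7 points lie above the Q111 points for all 13 genes, by a mean log2 difference of 0.63 (ND5) to 2.04 (ND3).

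Nuclear genes for the same complexes did not move as a block between the lines. Of 69 tested nuclear-encoded subunits of complexes I to IV and ATP synthase, 12 were higher and 13 lower in Q7 cells (29.2% of all genes tested were higher and 26.6% lower), with a median log2 difference of -0.04. The largest rise and the largest fall in each list were Ndufv2 (0.27, SE 0.073) and Ndufv3 (-0.58, SE 0.084) for complex I, Cyc1 (0.27, SE 0.066) and Uqcrb (-0.37, SE 0.085) for complex III, and Atp5b (0.35, SE 0.058) and Atp5e (-0.34, SE 0.13) for ATP synthase. In complex IV 3 of 9 tested genes were higher, with Cox6a1 at 0.45 (SE 0.094), and in complex II 1 of 4 was lower, Sdhd at -0.23 (SE 0.053). Of 17 genes for transcription and replication of mitochondrial DNA 2 were higher and 2 lower. Polrmt, the mitochondrial RNA polymerase, was higher by 0.42 (SE 0.063, limma adjusted p = 3.53e-07), and Primpol, a primase, was lower by a log2 difference of -0.26 (SE 0.085). Among 22 genes for processing and stability of mitochondrial RNA 7 were higher and 5 lower, led by Lrpprc, a protein known to stabilise mitochondrial mRNAs, at 0.65 (SE 0.068, limma adjusted p = 1.4e-10), and by Grsf1, a mitochondrial RNA-binding protein, at -0.33 (SE 0.048). Of 10 regulators of mitochondrial biogenesis 2 were higher and 4 lower. Ppargc1a, a coactivator known for driving mitochondrial biogenesis, had the largest fall at -1.03 (SE 0.083, limma adjusted p = 1.26e-13), and Ppargc1b the largest rise at 0.27 (SE 0.054).

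The next comparisons asked how each compound changed Q111 cells. All 14 share the 3 vehicle samples, so their values are not independent of each other. For 10 compounds limma called none of the 13 genes. These were 4-deoxypyridoxine (20.1% of all genes tested were called, and 1 of the 13 genes had an unadjusted p under 0.05), cyproheptadine (35.6%, 1 gene), cysteamine (7.83%, 1 gene), fingolimod phosphate (0.0597%, 0 genes), haloperidol (0%, 1 gene), loxapine (21.9%, 2 genes), nicotinamide (10.4%, 0 genes), nortriptyline (3.83%, 3 genes), selisistat (0.515%, 10 genes) and trichostatin A (13.1%, 1 gene). The median log2 difference of the 13 genes in these 10 lay between -0.42 for selisistat and 0.26 for cysteamine.

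Sodium butyrate, a histone deacetylase inhibitor, raised 2 of the 13 genes, where 19.6% of all genes tested were higher and 37.5% were called in either direction. ND4L was at 10.08, 10.05 and 10.01 with sodium butyrate against 9.29, 9.51 and 9.69 with vehicle (log2 0.55, SE 0.185, limma adjusted p = 0.0182). ND6 was at 8.25, 7.76 and 8.11 against 7.55, 7.83 and 7.61, so that its groups overlapped (0.38, SE 0.148, limma adjusted p = 0.0423). Pizotifen, a tricyclic antagonist of serotonin and histamine receptors, raised only ND4L among the 13 genes, where 8.86% of all genes tested were higher and 17.9% were called. ND4L was at 10.25, 10.03 and 9.97 with pizotifen (0.58, SE 0.185, limma adjusted p = 0.0238). Both ND4L calls were absent once ND4L was summed with its copy Gm10222. The call for pizotifen was lost without vehicle replicate 1 or 2 or pizotifen replicate 1, and sodium butyrate had 0 calls without vehicle replicate 1 or sodium butyrate replicate 1 and 1 call without vehicle replicate 3 or sodium butyrate replicate 3. Neither count exceeds the share over all genes. Sodium butyrate raised 38 and lowered 2 of the 69 tested nuclear-encoded subunits of the respiratory complexes and ATP synthase (17.8% of all genes tested were lower). Their median log2 difference was 0.23, near the 0.206 of the 13 mitochondrial genes, all of which had positive differences. All 13 were also positive for cyproheptadine, cysteamine and nortriptyline, for which no gene of the 13 was called.

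Lower values came with the Group B compounds. DKI lowered 4 of the 13 genes and raised none, where 21.9% of all genes tested were lower and 42.3% were called in either direction. CYTB was at 14.52, 14.76 and 14.21 with DKI against 15.08, 15.11 and 15.18 with vehicle, and fell by 0.63 (log2, SE 0.191, limma adjusted p = 0.00741). ATP6 was at 11.74, 12.39 and 11.61 against 12.62, 12.72 and 12.72, and fell by 0.78 (SE 0.261, limma adjusted p = 0.014). The groups did not overlap for either gene. ATP8, at 11.98, 12.21 and 11.77 against 12.30, 12.44 and 12.56, fell by 0.45 (SE 0.187, limma adjusted p = 0.0478). COX2 was at 14.13, 15.24 and 14.36 against 15.39, 15.11 and 15.22, so 1 DKI sample lay among the vehicle samples (-0.68, SE 0.254, limma adjusted p = 0.0286). All 13 differences were negative, the smallest in size being ND4L at -0.05, and for 5 genes every DKI sample was below every vehicle sample, which was so for 26.7% of all genes tested. A count of 4 of 13 is not far above the share over all genes. Without DKI replicate 3 none of the 13 genes was called, and without replicate 1 only 1.

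Meclizine, a piperazine antihistamine, lowered 1 of the 13 genes, where 13.6% of all genes tested were lower and 26.8% were called in either direction. This was ATP8, at 11.85, 12.12 and 11.67 against 12.30, 12.44 and 12.56 (-0.55, SE 0.185, limma adjusted p = 0.0233), whose groups did not overlap. ND3 was at 9.19, 9.91 and 9.05 against 10.10, 9.88 and 9.93 and was not called (-0.59, SE 0.249, limma adjusted p = 0.0764). Meclizine replicate 2 was close to vehicle for most of the 13 genes, and leaving it out brought the count to 3, whereas leaving out meclizine replicate 1 or 3 or vehicle replicate 2 or 3 brought it to 0. The vehicle samples were collected at other combinations of day and time than those of meclizine. Against fingolimod phosphate and haloperidol, which were collected on the same days and times at doses of 250 and 0.5 nM, meclizine had 9 of the 13 genes lower, where 14.0% of all genes tested were lower, with log2 differences between -0.87 for ND3 and -0.14 for COX1. Against Q111 vehicle, the median log2 difference of the 13 genes was -0.18 for meclizine, 0.244 for fingolimod phosphate and 0.225 for haloperidol.

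The study's compound groups were compared next. Group A minus Group B uses none of the vehicle samples, and all 13 genes were higher in Group A, where 19.9% of all genes tested were higher and 41.3% were called in either direction. As in the line comparison, the 13 genes are not independent results. The median log2 difference was 0.47, against -0.002 over all genes tested. The p-values of the group comparisons, here and against vehicle, measure the spread between samples of a condition. They do not measure the spread between the compounds of a group. CYTB differed most, with a lowest, median and highest value of 15.19, 15.35 and 15.53 in the 9 Group A samples and 14.21, 14.55 and 15.15 in the 6 Group B samples (0.75, SE 0.122, limma adjusted p = 4.27e-06). The Group B values of CYTB ended just below the Group A values. COX3 had values of 13.71, 13.90 and 14.10 in Group A and 12.56, 13.32 and 13.48 in Group B (0.69, SE 0.151, limma adjusted p = 0.000281). ATP8 had 12.25, 12.56 and 12.81 in Group A and 11.67, 11.91 and 12.21 in Group B (0.62, SE 0.12, limma adjusted p = 5.56e-05). COX1 differed least at 0.28 (SE 0.104, limma adjusted p = 0.0292), ND5 by 0.34 and ND2 by 0.37. ND6 differed by 0.43 (SE 0.0959, limma adjusted p = 4e-04). For 4 of the 13 genes, CYTB, COX3, ATP8 and ND4L, every Group A sample was above every Group B sample, which was so for 5.18% of all genes tested. The differences were positive for all 13 genes within day 1 (2 samples against 1, from 0.13 to 1.06), day 2 (3 against 2, from 0.13 to 0.55) and day 3 (4 against 3, from 0.36 to 1.05).

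Against vehicle, each group was less distinct. Group A raised 1 of the 13 genes, ND4L (0.41, SE 0.152, limma adjusted p = 0.0348), where 15.6% of all genes tested were higher and 32.8% were called in either direction. All 13 differences were positive, from 0.11 for ND3 to 0.41 for ND4L. Positive differences from vehicle were not particular to Group A, whose median was 0.209. All 13 were positive for cysteamine (median 0.26) and for nortriptyline at 1 nM (0.191). The number was 12 for fingolimod phosphate (0.244) and 11 for haloperidol at 0.5 nM (0.225), but 6 for nicotinamide (-0.001) and 1 for selisistat (-0.419). Group B lowered 2 of the 13 genes, ATP8 (-0.50, SE 0.161, limma adjusted p = 0.0109) and CYTB (-0.50, SE 0.164, limma adjusted p = 0.0129), where 21.2% of all genes tested were lower and 41.0% were called in either direction, and all 13 differences were negative, from -0.50 to -0.09. The counts of called genes for Group A and Group B both lie below the share over all genes. The call of ND4L for Group A was lost without vehicle replicate 1 or 2, cyproheptadine replicate 1 or 2, loxapine replicate 2 or pizotifen replicate 1, both calls for Group B were lost without vehicle replicate 3, and without DKI replicate 2 Group B had 4 calls.

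**Figure D3:**
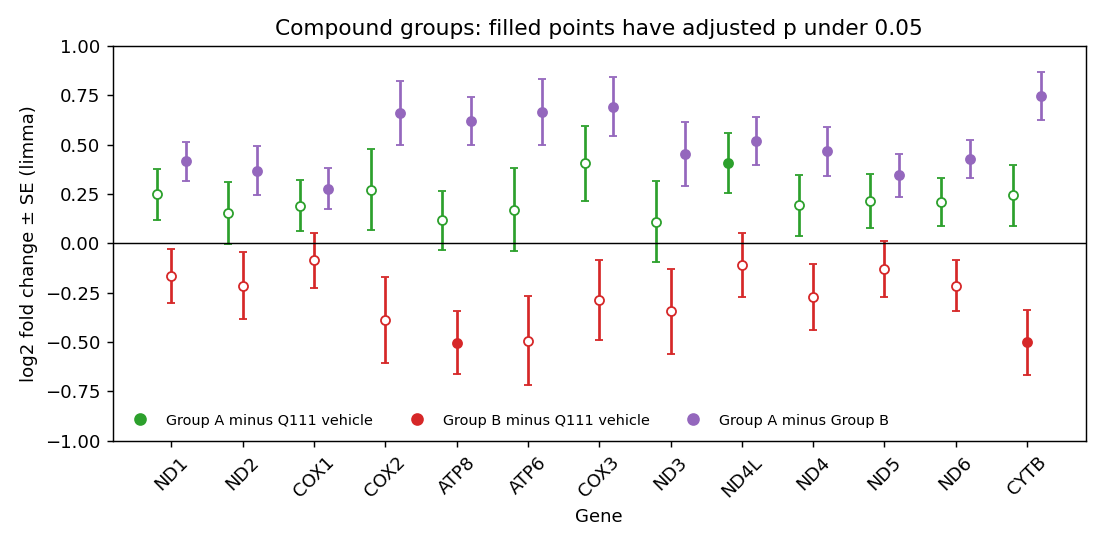
log2 fold change with its standard error (limma) of each of the 13 genes for Group A minus Q111 vehicle (green), Group B minus Q111 vehicle (red) and Group A minus Group B (purple); filled points have an adjusted p under 0.05. All 13 purple points are filled, between 0.28 (COX1) and 0.75 (CYTB), whereas 1 green and 2 red points are.

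The spread between samples that all these tests share was larger with Selisistat replicate 2 than without it, except for ND6: the residual SD of CYTB was 0.248 with and 0.153 without that library, and that of ND6 0.198 and 0.201. In a fit without that library, an alternative chosen after the data were seen, the genes lowered by DKI were 5 of 13 (23.0% of all genes tested were lower), those lowered by meclizine 2 (14.7%), and those lowered by Group B 4 (22.3%). The genes raised by sodium butyrate were then 4 of 13 (21.1% were higher), those raised by pizotifen 3 (10.1%) and those raised by Group A 4 (17.2%), namely ND1, COX3, ND4L and ND5. The 13 genes of the line comparison and of Group A minus Group B were all called in that fit as well.

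Of the compounds given at the same dose of 10 µM for the same duration, 3 pairs were compared. Cyproheptadine, a tricyclic antihistamine, and meclizine differed in 5 of the 13 genes, all higher with cyproheptadine, where 9.83% of all genes tested were higher and 18.8% were called in either direction. ATP8 was at 12.65, 12.81 and 12.64 with cyproheptadine and at 11.85, 12.12 and 11.67 with meclizine (0.81, SE 0.187, limma adjusted p = 0.00164). CYTB was at 15.51, 15.51 and 15.20 against 14.58, 15.15 and 14.49 (0.66, SE 0.191, limma adjusted p = 0.0121). ND3 (0.81), ND4L (0.58) and ND1 (0.46) were the others. Without Selisistat replicate 2 the count was 8 (11.0% of all genes tested were higher), and it was 1 without cyproheptadine replicate 1 or 2 or meclizine replicate 1, 2 without meclizine replicate 3 and 6 without meclizine replicate 2. Cyproheptadine and loxapine, both tricyclic, differed in 0 of the 13 genes, where 10.5% of all genes tested were called, and 0 had an unadjusted p under 0.05. The 95% interval of that difference was -0.25 to 0.53 for CYTB and -0.28 to 0.74 for ND3, so differences of that size were not excluded. DKI and meclizine differed in 0 of the 13 genes, where 8.11% of all genes tested were called, although COX2 (95% interval -1.10 to -0.07) and ATP6 (-1.11 to -0.05) had an unadjusted p under 0.05. Without DKI replicate 2, 2 genes were called.

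The chromosome 1 copies bear on 7 of the 13 genes as deposited. In Q111 cells with vehicle, the copy held 90.8% of the summed value of ATP6 and Gm10925, 76.4% for COX3, 71.9% for ND4L, 59.7% for ND3, 34.3% for COX2, and 1.45% and 1.38% for ND4 and COX1. Over the 48 samples the share held by the COX2 copy ran from 12.3% to 69.8%, whereas that of the ATP6 copy ran only from 88.2% to 94.4%. With trichostatin A, COX2 was at 14.62, 14.92 and 15.30 and Gm28661 at 15.37, 15.10 and 14.78, and their sum was at 16.04, 16.01 and 16.07. Where one of the pair was high the other was low, and the sum hardly varied. Sodium butyrate replicate 2 had COX2 at 14.55 and Gm28661 at 15.76, while its sum of 16.27 stood near the 16.13 and 16.08 of the other replicates.

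After condition and day were removed, COX2 and Gm28661 had the most negative correlation of the 7 pairs, -0.72 across 47 samples (without Selisistat replicate 2), a description of points that share libraries and an estimate of the same reads. It was positive for ATP6 (0.40) and ND4L (0.37), and lay between -0.23 and -0.11 for COX3, ND4, COX1 and ND3. The residual SD of COX2 in the same 47 samples was 0.295 as deposited and 0.123 with its copy, against 0.0989 for COX1 and 0.13 for ND1. For ND3 it was 0.334 and 0.185, for COX3 0.238 and 0.131, and for ATP6 0.199 and 0.152. The median residual SD over all genes tested, in all 48 samples, was 0.086. Summing also changed what the residuals shared: the median correlation over the 78 pairs of the 13 genes was 0.33 as deposited and 0.74 with copies, while ND1, ND2, ATP8, ND5 and CYTB, which have no such copy, had a median of 0.85 over 10 pairs. ND6 stood outside, with a median of 0.04 with the others in either form.

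With copies summed and Selisistat replicate 2 left out, both chosen after the data were seen, Group B lowered 8 of the 13 genes (22.3% of all genes tested were lower), DKI lowered 6 (23.0%), Group A raised 3 (17.2% were higher) and cyproheptadine exceeded meclizine in 11 (11.0%). The 8 genes lowered by Group B were COX2, ATP8, ATP6, COX3, ND3, ND4L, ND4 and CYTB, with log2 differences from -0.50 to -0.28, and ND1, ND2, COX1, ND5 and ND6 were not called. For Group A minus Group B, all 13 genes were called in this form too, and 7 instead of 4 had no overlap between the groups.

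**Figure D4:**
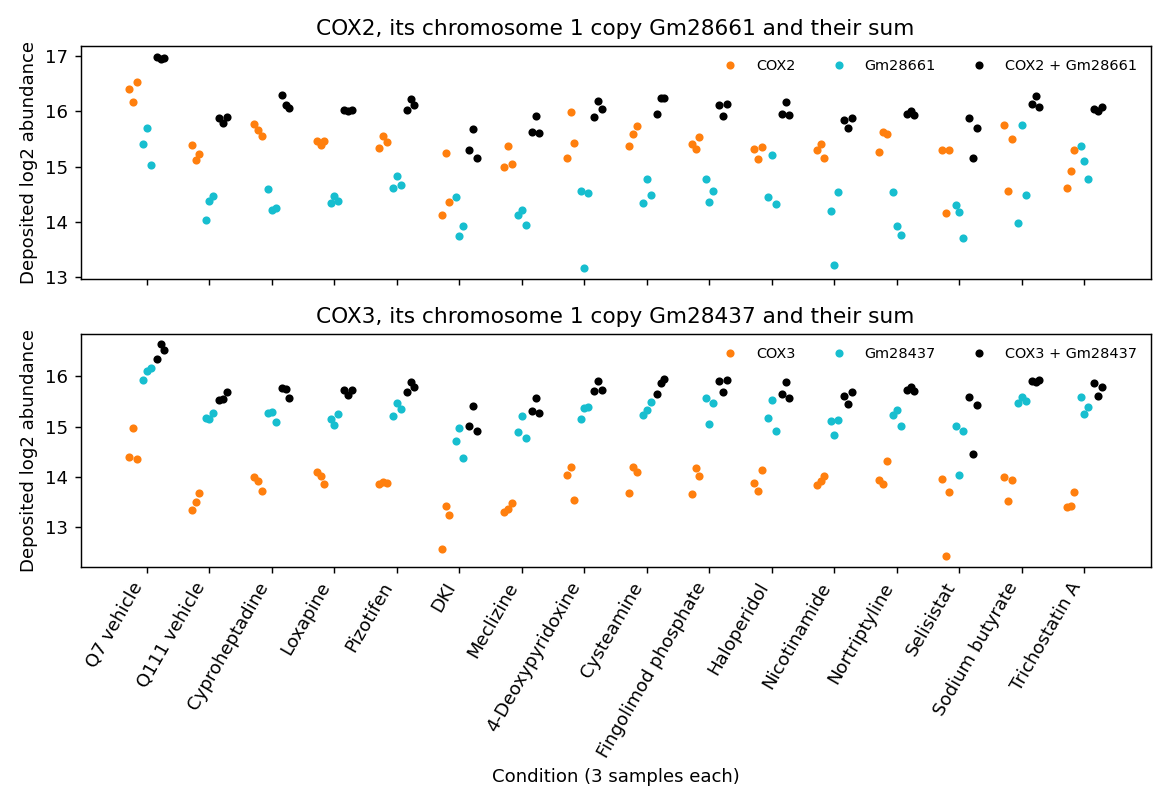
Deposited log2 abundance of COX2 (top) and COX3 (bottom), of their chromosome 1 copies Gm28661 and Gm28437, and of the log2 of the linear sum, for 3 samples in each of 16 conditions. The COX2 copy ranges widely between samples of a condition, as in sodium butyrate, where it spans 13.97 to 15.76, whereas the sum (black) stays within 16.08 to 16.27.

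The ribosomal RNAs of the same genome, mt-Rnr1 (12S, ENSMUSG00000064337) and mt-Rnr2 (16S, ENSMUSG00000064339), are not protein genes, and the libraries were made from poly(A)-selected RNA. They did not follow the mRNAs in every condition. In Q7 cells mt-Rnr2 was higher, at 15.32, 15.27 and 15.42 against 13.73, 13.55 and 13.78 (1.65, SE 0.21, limma adjusted p = 1.58e-08), whereas mt-Rnr1 was not called (0.52, SE 0.34, limma adjusted p = 0.207). DKI raised mt-Rnr1 to 13.30, 13.30 and 13.17 from 11.87, 11.42 and 11.85 (1.53, SE 0.34, limma adjusted p = 0.000445). It raised mt-Rnr2 to 14.65, 14.76 and 14.61 (0.98, SE 0.21, limma adjusted p = 0.000258). DKI thus had higher values of both rRNAs in the same samples in which 4 of the 13 protein genes were lower. For Group B both rRNAs were higher than with vehicle (1.10, SE 0.29 and 0.74, SE 0.18). mt-Rnr1 was lower in Group A than in Group B (-0.99, SE 0.22, limma adjusted p = 0.000394), opposite in direction to the 13 protein genes. In that comparison mt-Rnr2 was not called (-0.31, SE 0.13, limma adjusted p = 0.0697). Group A itself had mt-Rnr2 higher than vehicle (0.44, SE 0.17, limma adjusted p = 0.0476). For meclizine alone neither rRNA was called (0.66, SE 0.34 and 0.51, SE 0.21).

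Selisistat, an inhibitor of the deacetylase SIRT1, gave samples that disagreed with each other. CYTB was at 15.12, 13.85 and 15.13, and ND2 at 13.53, 12.05 and 13.46, with replicate 2 far below the vehicle samples. ND6 did not follow, at 8.47, 8.22 and 7.84 against 7.55, 7.83 and 7.61 with vehicle (0.51, SE 0.148, limma adjusted p = 0.0885). mt-Rnr2 was at 15.13, 14.77 and 13.81 and mt-Rnr1 at 13.86, 13.53 and 12.02, so the rRNAs were high in replicates 1 and 2 and near vehicle in replicate 3. Among the selisistat samples, replicate 2 alone combined low mRNAs with high rRNAs, replicate 1 had high rRNAs with mRNAs near vehicle, and RNA quality per library was not analysed here. Without replicate 2 limma called 0 of the 13 genes for selisistat, 1 with an unadjusted p under 0.05, and replicate 1 it called 5 and without replicate 3 it called 8.

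**Figure D5:**
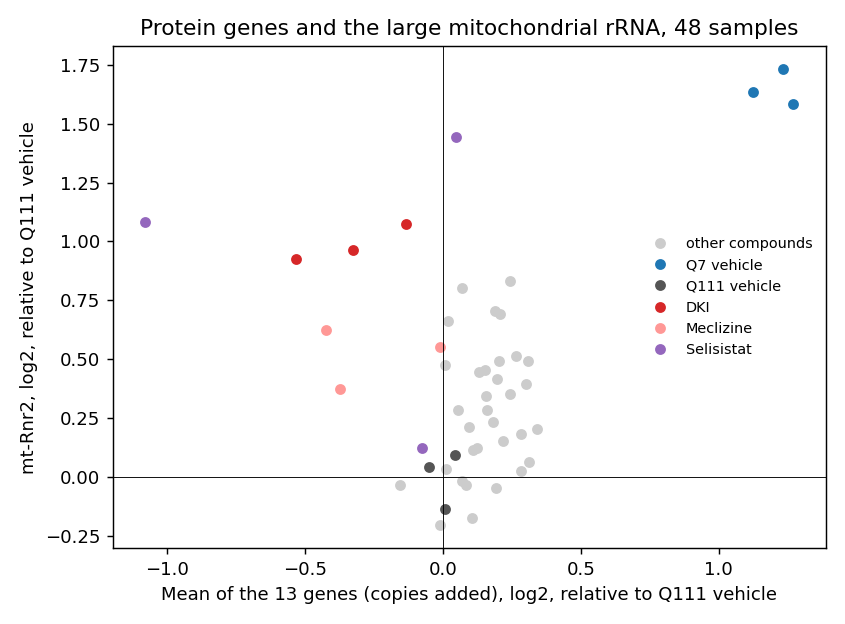
Each of 48 samples by the mean log2 value of the 13 genes with copies added (horizontal) and by the log2 value of mt-Rnr2 (vertical), both relative to the mean of Q111 vehicle. Q7 samples lie at upper right, the DKI and meclizine samples and Selisistat replicate 2 (mean -1.08) lie at upper left, with Meclizine replicate 2 close to the vertical line (mean -0.011), and vehicle lies at the origin.

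For the compound groups, the counts of the nuclear lists are to be read against the shares over all genes tested, which were 15.6% higher and 17.2% lower in Group A, 19.8% higher and 21.2% lower in Group B, and 19.9% higher and 21.4% lower in Group A than in Group B. Of the 69 nuclear-encoded subunits, 3 were higher and 6 lower in Group A, 10 higher and 5 lower in Group B, and 1 higher and 6 lower in Group A than in Group B, with medians of 0.02, 0.04 and -0.03. Uqcrq, a complex III subunit, had the largest rise of the complex III genes in both groups (0.29, SE 0.089 in Group A and 0.55, SE 0.095 in Group B). Of 17 genes for transcription and replication of mitochondrial DNA, Group B raised 9 and lowered 0, led by Top1mt, the mitochondrial topoisomerase (0.53, SE 0.07, limma adjusted p = 8.7e-08), and 10 were lower in Group A than in Group B, led by Primpol (-0.37, SE 0.055). Group A raised 4 of them, led by Ssbp1 (0.21, SE 0.057), and lowered Polrmt (-0.18, SE 0.051). Of 22 genes for processing and stability of mitochondrial RNA, Group B raised 10 and lowered 1, Group A raised 7 and lowered 1, and 1 was higher and 9 lower in Group A than in Group B. Tbrg4, which acts in mitochondrial RNA processing, had the largest rise in both (0.28, SE 0.06 in Group A and 0.48, SE 0.064 in Group B), and Lrpprc was the most strongly lower in Group A against Group B (-0.24, SE 0.044, limma adjusted p = 2.3e-05). Of 10 regulators of mitochondrial biogenesis, Group B raised 3 and lowered 1, and Group A raised 0 and lowered 2. In Group A against Group B, 1 was higher and 7 were lower. Ppargc1a was higher with Group B (0.49, SE 0.072, limma adjusted p = 7.11e-07) and lower in Group A than in Group B (-0.40, SE 0.053). In both the line comparison and Group A against Group B, Ppargc1a was thus lower where the 13 mitochondrial protein genes were higher. Cyproheptadine, however, raised Ppargc1a (0.23, SE 0.084, limma adjusted p = 0.0267), while all 13 genes had positive differences that were not called. Whether Ppargc1a and the 13 genes are linked was not tested.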

How the data were processed

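RNA was collected from 48 samples in 16 conditions, 3 samples each, and sequenced after poly(A) selection as directional single-end 50-base reads. The authors trimmed reads with Trimmomatic 0.36, estimated abundances with RSEM on the GRCm38.p5 transcriptome and normalised with DESeq2, and they deposited 1 table of normalised log2 abundance for 27281 genes (-2.34 to 18.62); the transformation is not named in the sources used here, and neither is whether batch variation was removed. The linear sums of the samples differed by at most 1.11 times. Estimated abundances divide reads shared by near-identical loci, and normalisation without counts leaves depth and counting error unknown.

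Conditions were compared in limma 3.58.1 (R 4.3.3) over all 48 samples with a term for collection day, 30 residual degrees of freedom, a mean-variance trend and Benjamini-Hochberg adjustment within each comparison over 13409 genes with a symbol and a mean of at least 1, two-sided, with calls at an adjusted p under 0.05. Genes without a symbol (9103) were added only for the rRNAs and chromosome 1 copies, which gave 15614 genes. Copies were found with BLAST 2.17.0 and shared windows with Python 3.11.15, on GENCODE M21 sequences of GRCm38, and figures were drawn with matplotlib 3.10.9. Simulated data covered 13409 genes. For Q7 against Q111 cells, 98% of 50 changes of 0.5 log2 and 42% of 50 changes of 0.25 were recovered. For Group A against Group B the rates were 100% and 94%. The mitochondrial protein genes had residual SDs from 0.175 (COX1) to 0.351 (ATP6), against a median of 0.086 over all genes tested. The simulation gave no separate rate for such SDs, so its rates do not describe these genes.

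All 13 genes were named in the text, with the largest called rise and fall of each nuclear list; 11 of 13 listed complex IV genes, 32 of 36 complex I genes and 15 of 17 ATP synthase genes were in the table. The genes and lists were chosen with earlier results of these data known. The samples of a condition were collected on 3 days, or on 2 for cyproheptadine and DKI, and where nothing says they were separate cultures, p-values measure only the spread between these samples. Replicate numbers were collection days except for replicate 1 of cyproheptadine and DKI. Deviations of same-numbered Q7 and Q111 samples had correlations of -0.13, 0.04 and -0.14, and collection day is a term of the model because the labels give it. Alternatives covered the block, the samples fitted, the filter, the scaling, the trend and each library left out. Leaving out Selisistat replicate 2 throughout and summing genes with their copies were chosen after the data were seen. Protein sequences were not used here.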

Additional observations from a re-analysis of the deposited data

Results flagged for a closer look

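COX3 in Group B had a lowest sample, DKI replicate 1 at 12.56, whose gap to the next value, 13.23, was 0.73 of the range of the 6 samples; 40 sets of samples were searched in this way, and chance alone marks about 1 in 20. With its copy added, COX3 was among the genes lowered by DKI.

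Group A and Group B differed in the test of the difference itself for all 13 genes, a test that does not measure the spread between compounds.

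The mitochondrial rRNAs, which lie outside the 13 genes, were above vehicle in several conditions. mt-Rnr1 was higher by 1.10 in Group B and by 1.42 with selisistat, and mt-Rnr2 by 0.74 in Group B, by 0.88 with selisistat and by 1.65 in Q7 cells (log2).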

How the results depend on the processing

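No called value reversed its direction under any alternative run. Differences that were not called did: of the 13 genes, the number with a positive difference went from 1 to 6 for selisistat without Selisistat replicate 2, and with copies summed from 6 to 2 for nicotinamide and from 8 to 11 for trichostatin A. All 13 genes were called for Q7 against Q111 cells under every alternative, each library left out included. For Group A minus Group B the count was 12 with only the compared samples fitted, 10 to 13 with a library left out (10 without meclizine replicate 1 or 3) and 13 otherwise. Of 931 values of single genes under alternatives, 842 kept their side of the threshold and 89 lost it.

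The counts against vehicle depended on which samples set the spread. With only the compared samples, the genes called were 3 for 4-deoxypyridoxine, 1 for cyproheptadine, 3 for cysteamine, 2 for DKI, 5 for fingolimod phosphate, 2 for loxapine, 2 for meclizine, 1 for nicotinamide, 2 for nortriptyline, 8 for pizotifen, 5 for sodium butyrate, 1 for trichostatin A, 6 for Group A, 4 for Group B and 1 for cyproheptadine minus meclizine. Without the trend 4-deoxypyridoxine had 1. Without a minimum mean DKI had 2, sodium butyrate 1 and Group A 0. Sodium butyrate had 1 with genes without a symbol, 1 with collection time added and 1 with rescaling to equal nuclear sums, where Group A had 0. Against compounds of matched day and time meclizine had 9, pizotifen 0 and sodium butyrate 0. Summed with copies, pizotifen had 0, sodium butyrate 1, Group A 0 and Group B 5.

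Without Selisistat replicate 2 there were 2 for 4-deoxypyridoxine, 2 for cyproheptadine, 1 for loxapine, 2 for meclizine, 3 for pizotifen, 4 for sodium butyrate, 1 for trichostatin A, 4 for Group A, 4 for Group B, 8 for cyproheptadine minus meclizine and 1 for DKI minus meclizine. With copies summed as well there were 1 for 4-deoxypyridoxine, 2 for cyproheptadine, 4 for meclizine, 2 for pizotifen, 5 for sodium butyrate, 3 for Group A, 8 for Group B, 11 for cyproheptadine minus meclizine and 1 for DKI minus meclizine. The cause of these changes was not tested. With any 1 library left out the counts ran from 0 to 5 for DKI, 0 to 4 for Group B, 0 to 1 for Group A, 0 to 3 for meclizine, 0 to 1 for pizotifen, 0 to 1 for cyproheptadine, 0 to 2 for sodium butyrate, 0 to 8 for selisistat, 1 to 6 for cyproheptadine minus meclizine and 0 to 2 for DKI minus meclizine.

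With the replicate number as a block, and with no block, every count was as in the model with collection day (13 for Q7 against Q111 cells, 13 for Group A minus Group B, 4 for DKI and 2 for Group B). The F test of collection day had found 0 genes with an unadjusted p under 0.05, so a block had no such variation to take out. The like counts therefore do not test the choice of block. For the same reason the correlations of same-numbered samples cannot decide whether samples were paired. Depth was unknown, so counting error could not be set beside any value.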
